A study of Mus musculus with 96 samples.

Results

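The genes described here are 9 genes of the fasted liver: 8 known targets of the fatty acid receptor PPAR-alpha, namely Cyp4a10, Cyp4a14, Ehhadh, Acot1, Vnn1, Fgf21, Pdk4 and Angptl4, and Bdh1, an enzyme of ketone body metabolism. They were taken by name from all 8 deposited FPKM tables, in which each of the 9 stands on 1 entry among 24066 genes with a unique symbol. Poly(A) RNA was sequenced from livers of C57BL/6J mice in 8 arms, with 3 libraries at each of 4 zeitgeber times (ZT, hours after lights on): ZT0, ZT6, ZT12 and ZT18. Control mothers were kept on a cycle of 12 h light and 12 h dark, and in shifted mothers the phase was advanced by 8 h every 5 days, during pregnancy only. Control and shifted fetuses are fetuses of mothers on the control and the shifted schedule. The other 4 arms are male offspring of control or shifted mothers with free access to food low or high in fat from 4 weeks of age for 12 weeks. They are called low-fat control, low-fat shifted, high-fat control and high-fat shifted offspring, and the last word always refers to the mother's schedule. Gestational age, fetal sex, the mother of each fetus and the litter of each offspring are unknown here. It is not stated that the 3 libraries of a group are separate animals, and they may be littermates. P-values thus measure the spread between libraries, which may be technical or within a litter. The schedule was set for the mother, so they may not measure the spread between mothers.

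In fasting, fatty acids released by adipose tissue enter the liver, bind PPAR-alpha (Ppara) and, with its partner RXR, raise the enzymes that oxidise them. Cyp4a10 and Cyp4a14 hydroxylate the far end of fatty acids, Ehhadh carries out steps of peroxisomal beta-oxidation, Acot1 splits fatty acyl-CoA into fatty acid and CoA, and Vnn1 frees pantothenate and cysteamine from pantetheine. Fgf21 is a hormone of the fasted liver, Pdk4 switches off pyruvate dehydrogenase and so spares glucose, Angptl4 inhibits lipoprotein lipase, and Bdh1 interconverts acetoacetate and beta-hydroxybutyrate. The sources used here do not state when food was last taken.

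Levels are FPKM, reads per length of transcript and depth of library, divided by a scaling factor per library within mothers, fetuses or offspring. Differences are on the scale of log2(FPKM + 1), which understates the change of weakly expressed genes, and a gene was called at a Benjamini-Hochberg adjusted p under 0.05 over all genes tested. The tables hold no counts, so the depth of the libraries is unknown. Since every arm was deposited separately, how a table was made and what the livers held cannot be told apart between arms. All 7 hepatocyte markers had a median of 1 FPKM or more in every arm, and the 4 markers of fetal hepatoblasts did so in both fetal arms and in no adult arm. Of 96 pairs of libraries within a group, 2 pairs differed far less than any other: replicates 2 and 3 of low-fat control offspring at ZT6 (interquartile range of the log2 ratio 0.071) and replicates 1 and 2 of low-fat shifted offspring at ZT12 (0.087), against at least 0.16 and a median of 0.37 in the others. Each of these pairs was counted as 1 sample at its mean, which left 94 libraries and 11 in each low-fat arm. High-fat control ZT0 replicate 1 had 8554 genes above 0, against at least 15074 in every other library, and its median correlation to its arm was 0.88. In bulk liver, fewer cells of a type and less RNA per cell cannot be told apart.

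In the GRCm38 annotation (GENCODE M21), Cyp4a14 lies at chr4:115486200-115496142 on the minus strand and Cyp4a10 beside it at chr4:115518264-115533649 on the plus strand, with their relatives Cyp4a31 and Cyp4a32 further along. Acot1 lies at chr12:84009490-84018371 (plus strand) beside Acot2, Acot3 and Acot4. How reads shared by such close relatives were divided is not given in the sources used here, so levels of Cyp4a10, Cyp4a14 and Acot1 are uncertain to that extent. Ehhadh (chr16:21761287-21787807, minus strand) and Bdh1 (chr16:31422280-31458901, plus strand) lie on 1 chromosome, Vnn1 at chr10:23894688-23905343 (plus strand), Fgf21 at chr7:45613886-45615490 (minus strand), Pdk4 at chr6:5483351-5496309 (minus strand) and Angptl4 at chr17:33773750-33781830 (minus strand). The RefSeq promoter table (GRCm38.p6, from 250 bases before to 50 bases after the start of a gene) held 5 of the 9 genes in 6 entries: Ehhadh, Acot1, Fgf21, Pdk4 and, with 2 starts, Bdh1. Cyp4a10, Cyp4a14, Vnn1 and Angptl4 had no entry. PPAR-alpha and RXR bind a pair of the site AGGTCA set 1 base apart, and the windows were searched on both strands for the single site, for that pair, for a looser pair of AGGNCA (which includes the strict pair) and for the E-box CACGTG, the motif of the clock activators. The promoters of Ehhadh and Acot1 are shown because those genes were called in the test of schedule by diet below, and that of Fgf21 because it holds the single match, with the E-box in capitals. Ehhadh is at chr16:21787785-21788084 (minus strand), Acot1 at chr12:84009252-84009551 (plus strand) and Fgf21 at chr7:45615441-45615740 (minus strand), each written 5′ to 3′ along the gene.
Ehhadh: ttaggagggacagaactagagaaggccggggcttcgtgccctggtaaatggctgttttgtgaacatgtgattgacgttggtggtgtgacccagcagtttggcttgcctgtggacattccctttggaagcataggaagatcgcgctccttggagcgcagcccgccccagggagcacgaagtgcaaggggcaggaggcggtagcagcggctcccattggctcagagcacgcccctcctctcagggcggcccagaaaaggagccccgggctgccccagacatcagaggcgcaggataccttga
Acot1: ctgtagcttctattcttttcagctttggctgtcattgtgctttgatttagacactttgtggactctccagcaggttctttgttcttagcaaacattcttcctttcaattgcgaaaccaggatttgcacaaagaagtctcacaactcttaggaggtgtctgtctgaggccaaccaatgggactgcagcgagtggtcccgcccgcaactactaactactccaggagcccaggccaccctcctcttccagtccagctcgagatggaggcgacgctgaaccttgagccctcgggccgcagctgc
Fgf21: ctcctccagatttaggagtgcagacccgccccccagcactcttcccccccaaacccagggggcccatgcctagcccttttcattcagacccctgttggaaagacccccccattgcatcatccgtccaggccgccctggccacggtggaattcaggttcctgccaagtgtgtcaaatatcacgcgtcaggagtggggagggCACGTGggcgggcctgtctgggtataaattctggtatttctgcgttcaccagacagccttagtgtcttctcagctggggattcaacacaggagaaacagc
None of the 6 entries held AGGTCA, which 16.3% of all 32841 promoters hold, nor either pair, held by 0.0396% (strict) and 0.381% (looser). Fgf21 alone held CACGTG, beginning 50 bases before the start, as 7.15% of all promoters do. These letters describe 300 bases around the start and no more.

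The ordering of the arms differed between the genes. Cyp4a10 was highest in control mothers (mean 357 ± 94.97 FPKM, SD, n = 12), followed by shifted mothers (254 ± 122), low-fat control offspring (202 ± 280, n = 11), high-fat shifted offspring (125 ± 70.4), low-fat shifted offspring (88.0 ± 89.1, n = 11), high-fat control offspring (87.6 ± 67.2), control fetuses (25.9 ± 29.7) and shifted fetuses (12.8 ± 23.4). Cyp4a14 had its highest mean in control mothers too (223 ± 138 FPKM) and its lowest in shifted fetuses (12.6 ± 24.3). Ehhadh stood highest in low-fat control offspring (152 ± 145 FPKM) and control mothers (132 ± 52.8) and lowest in shifted fetuses (18.03 ± 8.69). For Cyp4a10 and Cyp4a14 no 2 neighbouring arms in this order differed by more than the larger of their SDs, and for Ehhadh only high-fat control offspring and control fetuses did.

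Acot1 ran from 24.98 ± 8.69 FPKM in control mothers down to 7.90 ± 4.06 in high-fat control offspring, with both fetal arms in between (14.8 ± 3.46 in control and 11.4 ± 2.72 in shifted fetuses, the 1 neighbouring pair beyond its larger SD). Vnn1 was highest in both arms of mothers (35.96 ± 8.40 and 35.2 ± 18.3 FPKM) and at 6.23 ± 4.12 and 3.80 ± 3.03 in control and shifted fetuses. Bdh1 varied least between arms, from 49.8 ± 11.5 FPKM in shifted mothers to 79.3 ± 15.3 in high-fat shifted offspring. Angptl4 ran from 16.6 ± 5.44 FPKM in shifted fetuses to 45.9 ± 22.3 in high-fat control offspring. Pdk4 was the 1 gene highest in fetuses, at 7.49 ± 3.62 FPKM in control and 6.33 ± 2.50 in shifted fetuses, against 1.67 ± 2.01 in shifted mothers. Fgf21 had the lowest mean of the 9 in mothers and in fetuses, while in each offspring arm Pdk4 did: the median of Fgf21 was 1.15 FPKM in control mothers, 0.552 in shifted mothers, 0.117 in control fetuses and 0.01305 in shifted fetuses, and it did not pass the filter on low values in fetuses. Its offspring medians were 3.20 (low-fat control), 2.81 (low-fat shifted), 2.96 (high-fat control) and 4.26 FPKM (high-fat shifted). Levels of mothers, fetuses and offspring were scaled apart, and these differences between stages were not tested. In Vnn1, Pdk4, Angptl4 and Bdh1 no neighbouring arms differed beyond the larger SD, and in Fgf21 control mothers stood beyond it below high-fat control offspring and shifted mothers beyond it above control fetuses.

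**Figure D1:**
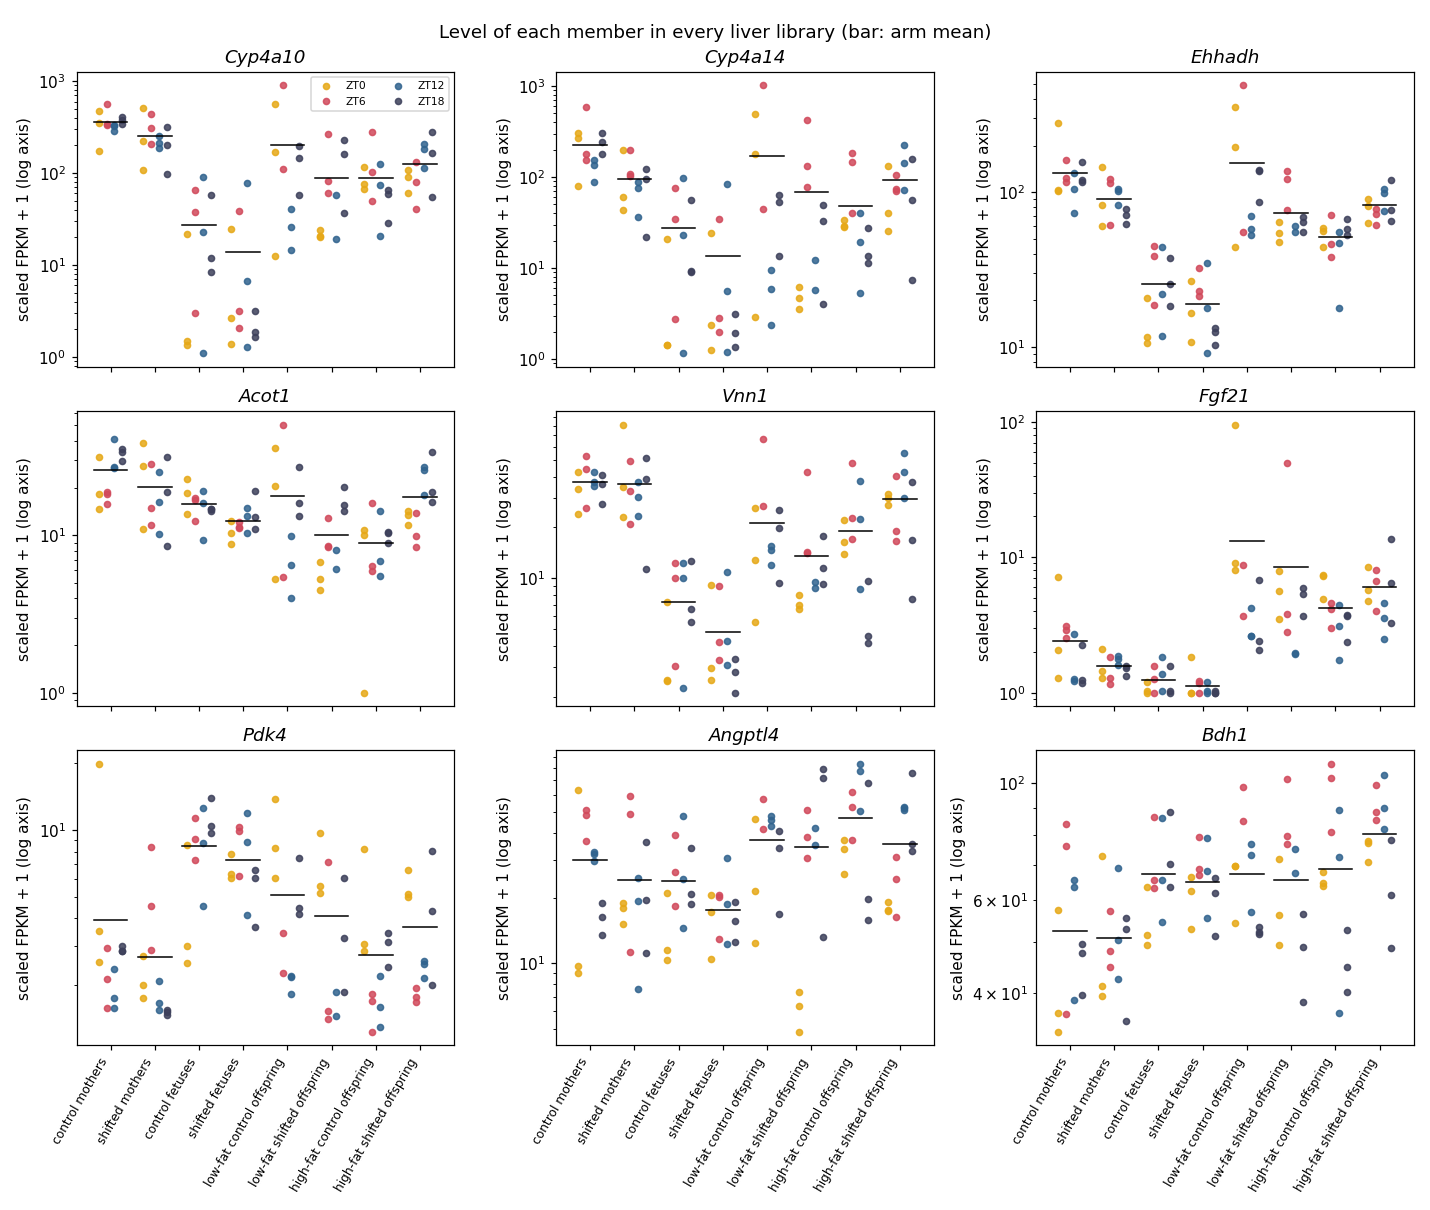
Level of each of the 9 genes (scaled FPKM + 1, log axis) in every library, by arm on the x axis and with zeitgeber time as colour; the black bar is the arm mean. Cyp4a10, Cyp4a14, Ehhadh and Vnn1 are lowest in fetuses, Pdk4 is highest there, and low-fat control offspring at ZT0 and ZT6 hold the highest Ehhadh values.

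The first comparison asked whether the shifted schedule changed these genes in the mothers themselves. Of the 9 genes, 1 was called, and it was lower in shifted mothers, where 7.91% of all 10376 genes were called (4.42% lower). All 9 differences were negative, with a median of -0.42 on the log2 scale against -0.004 over all genes. Fgf21 passed the filter on low values through control mothers (median 1.15 FPKM). Shifted mothers alone did not pass it (median 0.552, highest 1.1). The negative sign of Fgf21 was thus favoured by the filter and adds nothing to that of the others. Cyp4a14 ran from 78.8 to 591 FPKM with a median of 178 in control mothers, and from 21.1 to 199 with a median of 89.7 in shifted mothers. The arms overlapped as a whole. At ZT12 the values were 87.2, 136 and 154 FPKM in control and 34.9, 75.5 and 86.3 in shifted mothers. At ZT18 they were 241, 304 and 176 against 93.0, 21.1 and 122. Every shifted mother lay below every control mother at both times. Cyp4a14 was called at neither (limma adjusted p = 0.908 and 0.119), where 0% and 3.4% of all genes were called. How many of all genes separated in this way was not counted, so the separation alone says little. Cyp4a14 fell by 1.265 on the log2 scale (SE 0.33, limma adjusted p = 0.0269), that is 2.40-fold, and all 12 shifted mothers lay below the control mean of their time. The call ended without control ZT0 replicate 1 (adjusted p = 0.0507).

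That mother stood apart in other members too. It had 6.12 FPKM of Fgf21, 18.9 of Pdk4, 61.8 of Angptl4 and 281 of Ehhadh, each the highest of the 12 control mothers, while the other 2 control mothers at ZT0 had 1.05 and 0.281 of Fgf21, 1.53 and 2.50 of Pdk4, 8.05 and 8.68 of Angptl4, and 100 and 102 of Ehhadh. Ehhadh (-0.53, SE 0.18, adjusted p = 0.0668, lower in 11 of 12) and Cyp4a10 (-0.60, SE 0.235, adjusted p = 0.107, lower in 10 of 12) had the next largest differences and did not pass, though both were called without shifted ZT0 replicate 2 (adjusted p = 0.0298 and 0.0324). The other differences were -0.44 for Acot1 (SE 0.23, adjusted p = 0.222), -0.42 for Fgf21 (SE 0.21, 0.21), -0.32 for Pdk4 (SE 0.25, 0.415), -0.31 for Angptl4 (SE 0.32, 0.548) and -0.16 for Vnn1 (SE 0.24, 0.697). Bdh1 was nearly level, at -0.01 (SE 0.16) with a 95% interval from -0.34 to 0.31. It took the opposite sign with upper quartile scaling (0.002), with GC and length trends removed (0.032) and in 11 of 24 fits without 1 library, never with a call.

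Other PPAR-alpha target genes of the mothers gave 0 rises and 2 falls of 34 tested (5.88%, near the background), with a median of -0.18. They were Retsat, a retinol saturase, at 99.4 ± 36.4 FPKM in control and 51.3 ± 26.3 in shifted mothers (-0.98, SE 0.23, adjusted p = 0.0183), and Pex11a, which acts in peroxisome division, at 18.8 ± 5.96 and 12.1 ± 4.51 (-0.61, SE 0.17, adjusted p = 0.0338). Of 9 genes of ketone body synthesis, export and use, none was called. Of 11 feeding-induced genes, 2 rose, Pnpla3 and Thrsp, and 1 fell, Acaca. Ppara itself was not called (0.15, SE 0.15, adjusted p = 0.555), while Pparg fell from 3.06 ± 0.92 to 2.07 ± 0.41 FPKM (-0.38, SE 0.10, adjusted p = 0.0284), the 1 call among 14 receptors and partners. Among 15 relatives and partners of the members, such as other Angptl and Pdk genes, 1 rose, Fgfr2, and of 10 fasting-induced genes outside the pathway 0 were called.

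In fetuses the question was whether the mother's schedule reached the same genes before birth. None of the 8 genes tested was called (3.78% of all 11994 genes were), with 1 at an unadjusted p under 0.05. All 8 differences were negative, with a median of -0.37 against -0.007 over all genes. Acot1 had the smallest p: it ran from 8.42 to 21.7 FPKM (median 14.4) in control fetuses and from 7.78 to 18.3 (median 10.8) in shifted fetuses, a difference of -0.35 (SE 0.12, adjusted p = 0.105), with 11 of 12 below the control mean of their time. It was called in 1 fit, without control ZT12 replicate 2 (-0.43, adjusted p = 0.0304). The others were at -1.32 for Cyp4a14 (SE 0.89, adjusted p = 0.385), -1.24 for Cyp4a10 (SE 0.87, 0.407), -0.54 for Vnn1 (SE 0.35, 0.37), -0.37 for Ehhadh (SE 0.25, 0.379), -0.36 for Angptl4 (SE 0.21, 0.32), -0.12 for Pdk4 (SE 0.22, 0.75) and -0.04 for Bdh1 (SE 0.09, 0.804), which was at 0 with values as deposited. Without 1 library Bdh1 and Pdk4 were above 0 in 1 of 24 fits each, without a call. Of 36 other PPAR-alpha targets 34 lay below 0 (94.4%, against 52.2% of all genes), and 1 fell, Cpt2 of the mitochondrial carnitine shuttle, from 19.6 ± 2.82 to 16.01 ± 1.97 FPKM (adjusted p = 0.0403). Of 11 feeding-induced genes 10 lay below 0 as well, as did 10 of 11 fasting-induced genes. So did 15 of 20 relatives and 8 of 13 receptors and partners, and none of these 4 lists held a call. Of 8 ketone body genes 6 lay below 0 and 1 was called higher. Hepatocyte markers summed to a median of 75090 FPKM in control and 62280 in shifted fetuses, with overlapping ranges. Their part in these differences was not tested.

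The spread between fetuses of 1 group was far wider for Cyp4a10 and Cyp4a14 than any difference between the arms. Control fetuses at ZT12 had 0.0912, 21.8 and 89.3 FPKM of Cyp4a10 and, in the same order, 0.149, 22.1 and 97.0 of Cyp4a14. Shifted fetuses at ZT12 had 0.279, 5.63 and 77.0 of Cyp4a10 and 0.208, 4.65 and 81.8 of Cyp4a14. In both arms the same fetus was lowest, middle and highest for both genes. The other genes followed in smaller steps: in those control fetuses Vnn1 was at 1.24, 8.98 and 11.3 FPKM, Ehhadh at 10.7, 20.9 and 43.1, Pdk4 at 3.56, 7.76 and 11.5, Angptl4 at 13.6, 23.4 and 46.8, and Bdh1 at 53.7, 64.5 and 85.2. Acot1 did not keep that order (18.3, 8.42 and 15.0). Hepatocyte markers summed to 40080, 87710 and 103200 FPKM in the same 3 fetuses, and to 33780, 75210 and 96510 in the 3 shifted fetuses at ZT12, so the hepatocyte marker sum moved with these genes, and its part in their spread was not tested.

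**Figure D2:**
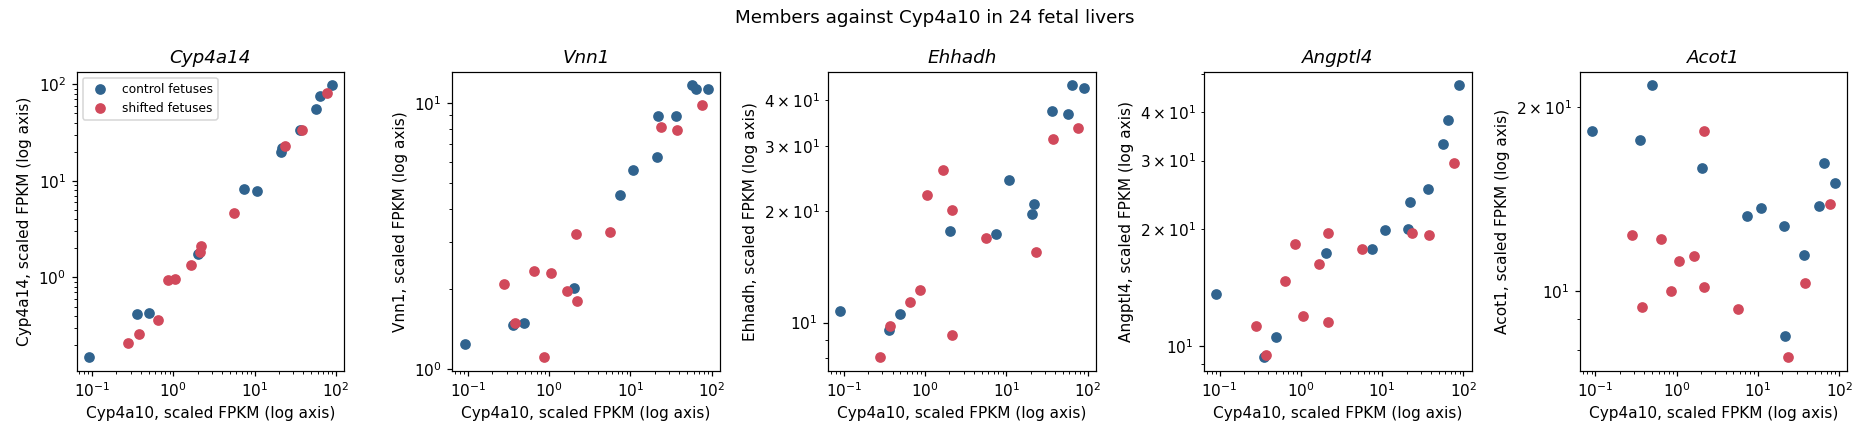
Cyp4a14, Vnn1, Ehhadh, Angptl4 and Acot1 against Cyp4a10 in the 24 fetal livers (scaled FPKM, log axes), with control fetuses in blue and shifted fetuses in red. Cyp4a14 lies close to a line over the whole range from 0.0912 to 89.3 FPKM of Cyp4a10, the next 3 genes rise along it and Acot1 does not.

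At ZT18 all 3 shifted fetuses lay below all 3 control fetuses in Cyp4a10, Cyp4a14, Ehhadh, Vnn1 and Pdk4, that is in 5 of 8 genes, as they did in 19.1% of all 11994 genes. For Cyp4a10 the values at ZT18 were 10.8, 56.8 and 7.44 FPKM against 0.648, 0.858 and 2.18. No member was called at ZT18, where 0% of all genes were called. An unadjusted p under 0.05 was reached by 3 of the 8 and by 3143 of all genes (26.2%). Hepatocyte markers summed to 75930, 111400 and 74250 FPKM in the control and 46370, 56680 and 33960 in the shifted fetuses at ZT18, so they were lower where these genes were, and their part in the difference was not tested.

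In low-fat offspring, the comparison of the 2 maternal schedules asked what remained in adult livers without a dietary load. None of the 9 genes was called, 2 were at an unadjusted p under 0.05, and 0.00921% of all 10857 genes (1 gene) were called. All 9 differences were negative, from -0.08 for Bdh1 to -1.10 for Cyp4a14, with a median of -0.57 against -0.009 over all genes. Ehhadh came nearest (-0.74, SE 0.275, 95% interval from -1.30 to -0.18, adjusted p = 0.623), and next Vnn1 (-0.72, SE 0.29, adjusted p = 0.696, below the control mean of its time in 11 of 11). Cyp4a14 (-1.10, SE 0.66, adjusted p = 0.827), Cyp4a10 (-0.87, SE 0.49, 0.806), Acot1 (-0.57, SE 0.35, 0.827), Angptl4 (-0.48, SE 0.26, 0.79), Pdk4 (-0.39, SE 0.25, 0.834) and Bdh1 (-0.08, SE 0.11, 0.95) followed.

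Low-fat control offspring spread widely at the first 2 times. Their Ehhadh levels were 43.3, 194 and 356 FPKM at ZT0 and 54.3 and 490 at ZT6, where the second value is the mean of the 2 near-identical libraries. At ZT12 they were 51.9, 56.7 and 69.6, and at ZT18 138, 85.7 and 135. Low-fat shifted offspring had 62.9, 46.7 and 53.5 at ZT0, 121, 76.2 and 136 at ZT6, 54.2 and 59.7 at ZT12, and 68.1, 54.5 and 63.0 at ZT18. The 3 highest values, 194, 356 and 490 FPKM, were thus all control samples of ZT0 and ZT6, while the shifted arm reached at most 136. Without the merged ZT6 sample the difference of Ehhadh was -0.35 and that of Acot1 -0.16.

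The same 3 samples were the highest of the control arm in Cyp4a14. It was at 1.90, 179 and 486 FPKM at ZT0 and 43.5 and 1018 at ZT6 in low-fat control offspring, and at 8.51, 4.95 and 1.39 at ZT12. The shifted arm also had its highest Cyp4a14 at ZT6 (132, 77.4 and 423 FPKM) and low values at ZT0 (5.25, 3.68 and 2.51). Acot1 reached 34.8 FPKM in the highest control sample at ZT0 and 49.7 in that at ZT6, against at most 19.3 anywhere in the shifted arm. Without low-fat control samples of ZT0 and ZT6 the comparison still called none of the 9 genes, and Cyp4a10 (0.179), Angptl4 (0.16) and Acot1 (0.017) were then above 0.

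Fgf21 had 2 single high values in low-fat livers. It was at 6.99, 94.4 and 8.02 FPKM in low-fat control offspring at ZT0, and at 48.9, 1.81 and 2.81 in low-fat shifted offspring at ZT6, while no other library of the series exceeded 12.7. Both livers belong to 5 offspring libraries whose median correlation to their arm was under 0.95 (0.943 and 0.949). The difference between the arms was -0.34 (SE 0.39, 95% interval from -1.13 to 0.45).

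The PPAR-alpha target genes outside the 9 gave 0 calls of 36 in low-fat offspring, and 31 of the 36 lay below 0 (86.1%, against 53.2% of all genes), with a median of -0.25. Of the 9 ketone body genes 7 lay below 0. Feeding-induced genes leaned the other way, with 8 of 11 above 0 and a median of 0.24, again without a call. No call was made among 18 relatives, 15 receptors and partners or 11 fasting-induced genes either.

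In high-fat offspring the direction was the opposite, and so many genes were called (46.7% of 10857, 25.6% higher) that a call alone says little about these genes. Of the 9 genes, 4 were called and all 4 rose: Acot1, Vnn1, Ehhadh and Bdh1. That share, 44.4%, is near the background. The median of the 9 differences was 0.61, against 0.012 over all genes.

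Ehhadh was at 43.4, 57.3 and 54.8 FPKM at ZT0 in high-fat control offspring, 37.2, 70.0 and 45.1 at ZT6, 53.9, 16.8 and 45.8 at ZT12, and 57.0, 66.4 and 52.0 at ZT18. In high-fat shifted offspring it was at 62.2, 89.7 and 80.8 at ZT0, 60.6, 71.0 and 77.1 at ZT6, 98.0, 104 and 74.0 at ZT12, and 64.1, 76.2 and 119 at ZT18. Each of the 12 shifted livers exceeded the control mean at its time. At ZT0 and ZT12 the groups did not overlap, where 27.8% and 30.3% of all genes were called. How many of all genes separated in this way was not counted, and Ehhadh was not called at ZT0 (limma adjusted p = 0.424). The rise was 0.73 (SE 0.26, 1.66-fold, adjusted p = 0.0202). It ended without high-fat control ZT12 replicate 2, the library at 16.8 FPKM (adjusted p = 0.054), and without all 5 offspring libraries of low correlation, of which that library is 1 (adjusted p = 0.0625).

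Acot1 rose most among the 4, by 1.10 (SE 0.33, 2.15-fold, adjusted p = 0.00694). At ZT12 it was at 4.55, 5.91 and 13.2 FPKM in high-fat control and 26.3, 25.1 and 17.1 in high-fat shifted offspring, and at ZT18 at 9.39, 9.53 and 7.96 against 15.3, 17.8 and 32.8. At ZT0 it was listed at 0 in high-fat control replicate 1, the library with few genes above 0, and stood at 9.04 and 9.87 in the other 2 and at 10.6, 12.4 and 13.3 in the shifted arm. Without that library the rise was 0.85 (adjusted p = 0.0118).

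Vnn1 rose by 0.81 (SE 0.28, 1.75-fold, adjusted p = 0.0162), being above the control mean of its time in 10 of 12 libraries. At ZT0 it was at 21.2, 12.9 and 15.5 FPKM in control and 29.0, 30.6 and 26.0 in shifted offspring, without a call (limma adjusted p = 0.296). At ZT6 the ranges overlapped (16.04 to 47.0 and 15.6 to 39.3). Bdh1 rose by 0.28 (SE 0.11, 1.21-fold, adjusted p = 0.0315), with 63.0 to 67.0 FPKM in control and 70.0 to 76.9 in shifted offspring at ZT0. The Bdh1 call ended in 6 of 24 fits that left out 1 library (adjusted p up to 0.0889): control ZT6 replicate 3, ZT12 replicate 2 or ZT18 replicate 2, or shifted ZT6 replicate 3, ZT12 replicate 2 or ZT18 replicate 3. It also ended with GC and length trends removed (0.052), without the 5 offspring libraries of low correlation (0.0608) and in a fit of these 2 arms alone (0.0564).

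The remaining 5 genes did not pass. Cyp4a14 had the largest difference of the 9 (1.205, SE 0.63, adjusted p = 0.113) and also the widest interval, from -0.07 to 2.48, and was called in a fit of these 2 arms alone (adjusted p = 0.0327) and without shifted ZT18 replicate 1 (0.0454). Its ZT12 values were 4.25, 18.1 and 38.8 FPKM in control and 143, 225 and 70.9 in shifted offspring, without a call (limma adjusted p = 0.0611). Cyp4a10 (0.61, SE 0.46), Fgf21 (0.47, SE 0.37) and Pdk4 (0.41, SE 0.24) had positive differences, and Pdk4 was called once the library with few genes above 0 was left out (0.55, adjusted p = 0.0442). Angptl4 alone was lower (-0.41, SE 0.25, adjusted p = 0.174), in 10 of 12 libraries. At ZT0 Angptl4 was at 35.98, 32.8 and 24.8 FPKM in high-fat control and 16.7, 18.2 and 16.5 in high-fat shifted offspring. At ZT6 it was at 36.2, 51.6 and 61.0 against 15.3, 23.5 and 29.9, both without a call (limma adjusted p = 0.213 and 0.279). At single times 2 of 36 tests were called, Ehhadh (1.36, SE 0.52, adjusted p = 0.0443) and Bdh1 (0.565, SE 0.21, adjusted p = 0.0413) at ZT12, where 30.3% of all genes were called. No single-time call remained with no filter on low values, with upper quartile scaling, without the 5 offspring libraries of low correlation, or without control ZT12 replicate 2 or shifted ZT12 replicate 1 or 2, and 1 remained with GC and length trends removed or without shifted ZT12 replicate 3. Without control ZT0 replicate 1 there were 4, and with values as deposited 6.

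Among other PPAR-alpha target genes of high-fat offspring 17 rose and 2 fell of 36, with a median of 0.42. That share, 52.8%, stands beside a background of 46.7% of all genes called (25.6% higher). Pex11a rose from 15.0 ± 6.99 to 42.3 ± 22.1 FPKM (1.39, SE 0.21, adjusted p = 3.03e-06), Aldh3a2, a fatty aldehyde dehydrogenase, from 89.5 ± 36.1 to 164 ± 50.1, and Acadm, the medium-chain acyl-CoA dehydrogenase of mitochondria, from 104 ± 20.5 to 149 ± 27.8. Fabp1, the fatty acid carrier of the hepatocyte, fell from 18080 ± 5745 to 12540 ± 2680 FPKM, and Mlycd, which breaks down malonyl-CoA, from 38.8 ± 5.19 to 31.8 ± 2.73. Of the ketone body genes 3 of 9 were called and rose (33.3%, under the background of calls). Among them were the monocarboxylate transporters Slc16a1, from 7.21 ± 2.78 to 10.2 ± 4.16 FPKM, and Slc16a7, from 12.5 ± 3.94 to 17.8 ± 7.03. Ppara rose from 24.1 ± 6.25 to 37.7 ± 8.90 FPKM (0.62, SE 0.13, adjusted p = 0.000232) and its partner Rxra from 42.7 ± 8.34 to 57.9 ± 8.55, among 4 rises and 2 falls of 15 receptors and partners (40%, under the background). Of 18 relatives 5 rose and 2 fell (38.9%, under the background), with Klb, the co-receptor of FGF21, at 2.48 ± 0.832 in control and 5.92 ± 1.83 FPKM in shifted offspring (0.98, SE 0.13, adjusted p = 6.06e-07).

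Of 11 feeding-induced genes 7 were called and all 7 rose (63.6%, where 25.6% of all genes were called higher). Acly, which makes acetyl-CoA for lipid synthesis, was at 39.1 ± 21.1 FPKM in control and 71.7 ± 23.97 in shifted offspring. Of 11 fasting-induced genes outside the pathway 1, G6pc, rose (9.09%). The summed level of the 7 hepatocyte markers ran from 47670 to 77320 FPKM in high-fat control and from 38350 to 59100 in high-fat shifted offspring, lower where the PPAR-alpha targets were higher, and its part in these differences was not tested. The means of 5 of the 7 were lower in the shifted arm, while those of Apob (173.5 against 301.6 FPKM) and Trf (4602 against 4786) were higher.

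The effect of diet was compared within each maternal schedule. These comparisons share their samples with those above: high-fat control offspring serve in both, and so do low-fat shifted offspring, so their values are not independent. In offspring of control mothers 2 of 9 genes were called, both lower on the high-fat diet, where 9.1% of all genes were called (4.84% lower). Ehhadh fell by 1.23 (SE 0.27, 2.35-fold, adjusted p = 0.00446), with all 12 high-fat livers below the low-fat mean of their time. The call held in each of 23 fits without 1 sample, and its size moved between -0.84 and -1.63. Pdk4 fell by 0.77 (SE 0.24, 1.7-fold, adjusted p = 0.0425). Its levels at ZT18 were 6.49, 3.44 and 3.18 FPKM on the low-fat and 2.43, 1.41 and 2.12 on the high-fat diet. No member was called at a single time in this comparison. The Pdk4 call ended in 15 of those 23 fits (adjusted p up to 0.133): those without low-fat ZT0 replicate 3, the merged ZT6 sample or any sample of ZT12 or ZT18, and those without high-fat ZT0 replicate 3, any ZT6 library, ZT12 replicate 2 or ZT18 replicate 2 or 3. It also ended with GC and length trends removed (0.0814), with no filter on low values (0.0785) and without low-fat samples of ZT0 and ZT6 (0.304). The median of the 9 was -0.48, against -0.032 over all genes. The remaining differences were -0.80 for Acot1 (SE 0.34, adjusted p = 0.13), -0.56 for Fgf21 (SE 0.38, 0.342), -0.48 for Cyp4a10 (SE 0.48, 0.538), -0.41 for Cyp4a14 (SE 0.65, 0.704), -0.32 for Vnn1 (SE 0.29, 0.483), -0.06 for Bdh1 (SE 0.11, 0.75) and 0.26 for Angptl4 (SE 0.25, 0.529).

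In offspring of shifted mothers 2 genes were called and both rose with the high-fat diet, where 19.1% of all genes were called (9.23% higher). All 9 differences were positive, though that of Pdk4 (0.03) was at -0.037 with GC and length trends removed and below 0 in 6 of 23 fits without 1 sample, never with a call. The median of the 9 was 0.33, against 0.009 over all genes. Vnn1 rose by 1.21 (SE 0.28, 2.32-fold, adjusted p = 0.0031). At ZT0 it was at 5.91, 6.97 and 5.57 FPKM on the low-fat and 29.0, 30.6 and 26.0 on the high-fat diet, and at ZT12 at 8.54 and 7.76 against 41.4, 54.1 and 28.8. The ZT0 difference (2.05, SE 0.55, adjusted p = 0.0298) was the single call among 36 tests at single times, where 5.23% of all genes were called at ZT0. None remained with no filter on low values, with GC and length trends removed, or without low-fat ZT0 replicate 1 or any high-fat ZT0 library, while there were 5 in a fit of these 2 arms alone and 3 with values as deposited. Cyp4a14 rose by 1.89 (SE 0.65, 3.70-fold, adjusted p = 0.0375). Its levels at ZT0 were 5.25, 3.68 and 2.51 FPKM on the low-fat and 24.6, 130 and 39.0 on the high-fat diet, while at ZT6 the low-fat livers were not lower (132, 77.4 and 423 against 72.6, 69.1 and 104). The Cyp4a14 call ended in 13 of 23 fits without 1 sample (adjusted p up to 0.0883): low-fat ZT0 replicate 2, ZT6 replicate 1 or 2, either ZT12 sample or ZT18 replicate 3, or high-fat ZT0 replicate 2, ZT6 replicate 2 or 3, ZT12 replicate 1 or 2, or ZT18 replicate 2 or 3. It also ended with upper quartile scaling (0.0502) and with no filter on low values (0.0684).

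Ehhadh, which fell with the diet in offspring of control mothers, was not called in those of shifted mothers (0.24, SE 0.27, 95% interval from -0.30 to 0.79). Bdh1 (0.30, SE 0.11, adjusted p = 0.0516) and Acot1 (0.875, SE 0.34, adjusted p = 0.0687) lay just outside the threshold. Cyp4a10 (1.0, SE 0.48, adjusted p = 0.143), Angptl4 (0.33, SE 0.25, 0.392), Fgf21 (0.25, SE 0.38, 0.696) and Pdk4 (0.03, SE 0.24, 0.943) were not called. In a fit of these 2 arms alone 5 genes were called, with Acot1, Bdh1 and Cyp4a10 added.

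The other lists were counted for diet in the same way. With the high-fat diet, 0 of 36 other PPAR-alpha targets were called in offspring of control mothers (9.1% of all genes), and 17 rose and 1 fell in those of shifted mothers (19.1% of all genes). Aldh3a2 rose there from 60.8 ± 25.5 to 164 ± 50.1 FPKM (1.44, SE 0.16, adjusted p = 3.69e-07). Pparg, known to be raised in fatty liver, rose from 2.36 ± 1.73 to 6.72 ± 3.72 FPKM (1.19, SE 0.21, adjusted p = 0.000222). Feeding-induced genes fell in both, 8 of 11 in offspring of control and 6 of 11 in offspring of shifted mothers, Pnpla3 from 9.13 ± 12.0 to 0.470 ± 0.485 and from 6.18 ± 7.60 to 0.3995 ± 0.363 FPKM. Of 18 relatives 2 rose and 6 fell in offspring of control mothers, with Cyp4a12b from 54.5 ± 14.5 to 31.2 ± 12.0 FPKM, and 2 rose and 2 fell in those of shifted mothers. Of 15 receptors and partners 0 were called in the former, and 4 rose and 1 fell in the latter. Of 11 fasting-induced genes 0 were called in the former and 1 rose in the latter, Pck1.

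The difference itself, the effect of the maternal schedule under the high-fat minus that under the low-fat diet, was tested in 1 model over all offspring. Of the 9 genes 3 were called, all positive, where 17.6% of all genes were called (10.1% positive). The values were 1.67 for Acot1 (SE 0.48, adjusted p = 0.0176), 1.53 for Vnn1 (SE 0.40, adjusted p = 0.0104) and 1.48 for Ehhadh (SE 0.38, adjusted p = 0.00874). All 9 values were positive, with a median of 1.48 against 0.021 over all genes, and those of Cyp4a14 (2.30, SE 0.91, adjusted p = 0.0746), Cyp4a10 (1.48, SE 0.68, adjusted p = 0.123), Fgf21 (0.81, SE 0.54, 0.299), Pdk4 (0.80, SE 0.34, 0.1), Bdh1 (0.36, SE 0.15, 0.102) and Angptl4 did not pass. Angptl4 was the lowest, at 0.075 (SE 0.36), being lower in the shifted arm on either diet, and was below 0 in 4 of 46 fits without 1 sample.

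Except in Angptl4, the medians of the 2 schedules stood in opposite order on the 2 diets. None of the 9 genes was called on the low-fat diet, however. The interaction test asks whether the 2 effects differ, and not whether they are opposite. The median of Ehhadh on the low-fat diet was 85.7 FPKM in control and 62.9 in shifted offspring, and on the high-fat diet 52.9 and 76.6. For Acot1 the medians were 12.3, 7.39, 8.50 and 14.3 FPKM in the same order, and for Vnn1 14.5, 8.54, 15.8 and 28.9. Ehhadh and Vnn1 held their calls in all 46 fits that left out 1 sample. Acot1 lost its call in 1 of them, without the merged low-fat control sample of ZT6 (1.27, adjusted p = 0.0677, with Ehhadh then at 1.08 and Vnn1 at 1.37), and kept it without high-fat control ZT0 replicate 1 (1.41, adjusted p = 0.0129). Fits that leave out 1 sample cannot show what the high low-fat control samples of ZT0 and ZT6 contribute together. The interaction was not tested without those samples. Of 36 other PPAR-alpha targets 17 were called and all were positive (47.2%, where 10.1% of all genes were called positive), with a median of 0.68. They were led by Aldh3a2 (1.30, SE 0.22, adjusted p = 0.000962), Pex11a (1.77, SE 0.30) and Acadm (0.71, SE 0.13). All lists were chosen with earlier results of these data known, so their shares, here and above, are not independent support. Of the ketone body genes 4 of 9 were positive calls, of the receptors and partners 3 of 15, among them Ppara (0.54, SE 0.19, adjusted p = 0.0474), and of feeding-induced and of fasting-induced genes 0 of 11 each. Of 18 relatives 3 were positive calls (Pdp2, Klb and Pdha1) and 1 was negative (Angptl6).

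**Figure D3:**
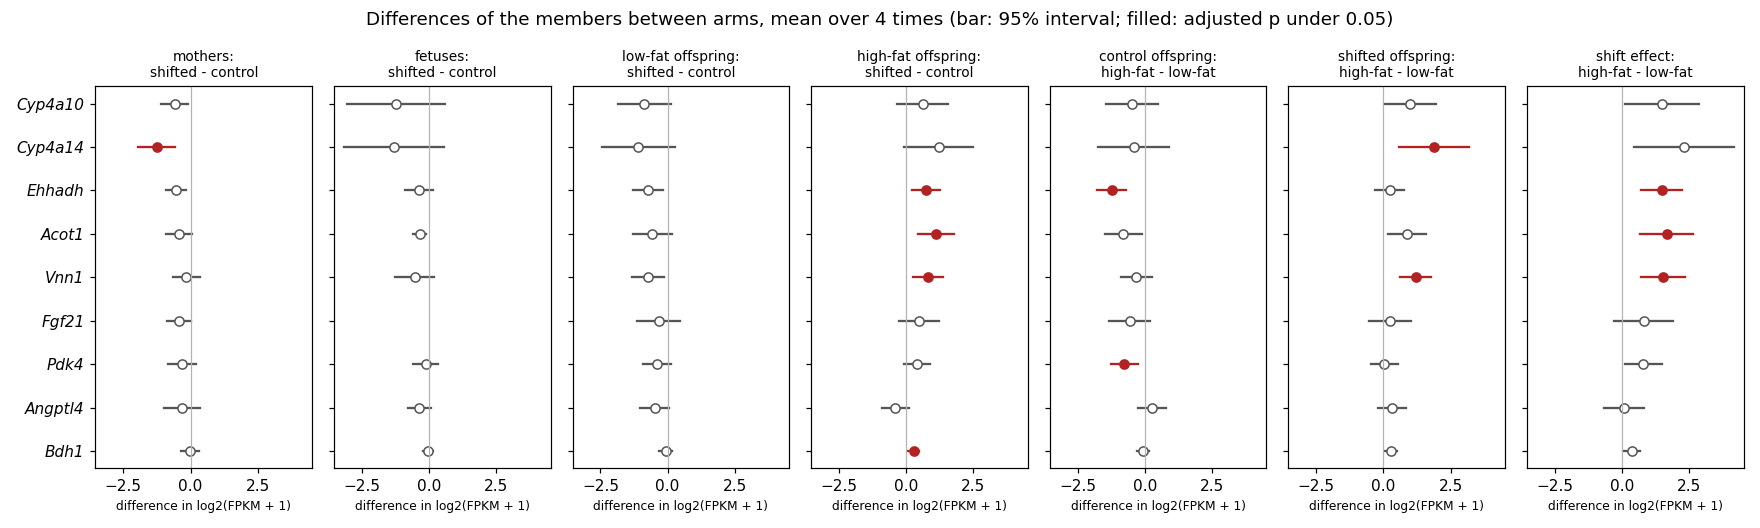
Differences in log2(FPKM + 1) of the 9 genes in 7 comparisons, with 95% intervals; filled red points passed an adjusted p of 0.05 and open points did not. The values of the 9 lie below 0 in mothers, fetuses and low-fat offspring and, but for Angptl4, above 0 in high-fat offspring; Fgf21 was not tested in fetuses.

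**Figure D4:**
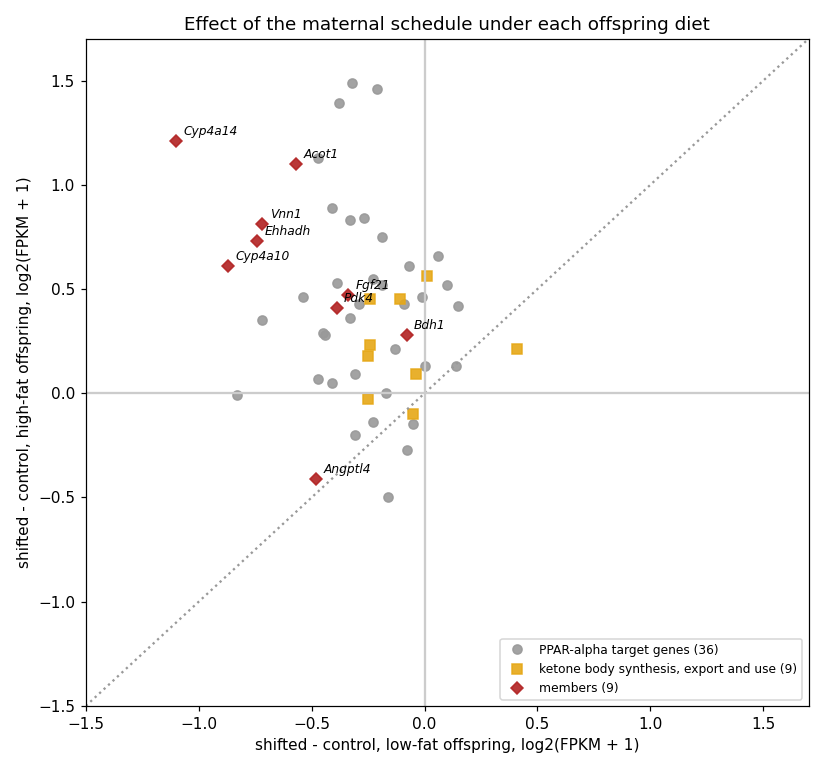
Shifted minus control difference in low-fat offspring (x axis) and in high-fat offspring (y axis), both in log2(FPKM + 1), for the 9 genes (red), 36 other PPAR-alpha targets (grey) and 9 ketone body genes (orange); the dotted line marks equal effects. Of the 9 genes 8 lie left of 0 and above 0, and Angptl4 lies below 0 on both axes.

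Time of day was tested within each arm, over the 4 times. No gene was called in control mothers (9 tested, 4.28% of all genes called), shifted mothers (8 tested, 0.716%), control or shifted fetuses (8 tested in each, 0% in both) or high-fat control offspring (9 tested, 0.753%). Unadjusted p under 0.05 was reached by 1 gene in control mothers, 1 in shifted mothers, 1 in control fetuses, none in shifted fetuses and 5 in high-fat control offspring. In low-fat control offspring 1 of 9 was called (4.28%), in low-fat shifted offspring 4 of 9 (12.2%) and in high-fat shifted offspring 4 of 9 (30.4%). In simulated offspring data 7.46% to 23.9% of 2-fold daily swings were called, and 83.3% to 89.4% of 4-fold ones. In simulated mothers and fetuses 52.2% to 67.2% of 2-fold swings were called. The simulation changed few genes and used 1 spread per gene over all arms of a stage, so recovery in a real arm may differ. An absent call thus does not show a level course.

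Pdk4, the kinase that spares glucose, had a common course, high at ZT0 and low at ZT6 or ZT12 in all 4 offspring arms. In low-fat control offspring it was at 5.05, 7.33 and 12.9 FPKM at ZT0, 1.26 and 2.41 at ZT6, 1.18, 0.817 and 1.20 at ZT12, and 6.49, 3.44 and 3.18 at ZT18 (adjusted p = 0.0225). In high-fat shifted offspring it was at 4.13, 5.62 and 4.00 at ZT0, 0.939, 0.669 and 0.763 at ZT6, 1.49, 1.55 and 1.16 at ZT12, and 1.01, 3.31 and 7.06 at ZT18 (adjusted p = 0.0222). At ZT0 each of these arms lay wholly above its ZT6 and ZT12 values, and how many of all genes did so was not counted. The peak stood at ZT0 in the other 2 offspring arms as well, without a call (adjusted p = 0.146 in low-fat shifted and 0.202 in high-fat control offspring).

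Angptl4, the lipase inhibitor, ran almost opposite. In low-fat shifted offspring it was at 6.39, 3.83 and 5.35 FPKM at ZT0, 29.5, 37.1 and 50.1 at ZT6, 34.1 and 41.3 at ZT12, and 70.6, 77.9 and 12.2 at ZT18 (adjusted p = 0.0215), so that every ZT0 liver lay below every liver of the other times. How many of all genes separated in this way was not counted. In high-fat shifted offspring Angptl4 was at 16.7, 18.2 and 16.5 at ZT0 and 50.2, 51.9 and 50.9 at ZT12 (adjusted p = 0.0082). In low-fat control offspring the ZT0 values were 11.4, 20.5 and 45.2, and time of day was not called (adjusted p = 0.279). At ZT0 the difference between the low-fat arms was -1.92 (SE 0.49), without a call (limma unadjusted p = 0.00042, adjusted p = 0.195).

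Acot1 was called in both shifted arms. It was highest at ZT18 in low-fat shifted offspring (19.3, 14.7 and 13.3 FPKM, against 5.73, 4.28 and 3.49 at ZT0, adjusted p = 0.013) and at ZT12 in high-fat shifted offspring (26.3, 25.1 and 17.1, against 8.98, 7.44 and 12.9 at ZT6, adjusted p = 0.0194). Cyp4a14 (adjusted p = 0.0168) and Ehhadh (adjusted p = 0.0455) were called in low-fat shifted offspring, both highest at ZT6, and Bdh1 in high-fat shifted offspring (adjusted p = 0.0366), with 47.7 to 77.1 FPKM at ZT18 and 81.1 to 103 at ZT12. Bdh1 had a common course too, lowest at ZT18 and highest at ZT6 or ZT12 in all 4 offspring arms, though called only in high-fat shifted ones. The call of Ehhadh ended in 8 of 11 fits without 1 sample, all but those without ZT0 replicate 1, ZT6 replicate 2 or ZT18 replicate 2 (adjusted p up to 0.189), and that of Bdh1 in 10 of 12, all but those without ZT12 or ZT18 replicate 3 (up to 0.0748). Single libraries ended others too: Pdk4 in low-fat control offspring without any ZT12 library (up to 0.0748) and in high-fat shifted offspring without ZT0 replicate 1 or 2 or ZT6 replicate 2 (up to 0.0577), Angptl4 in low-fat shifted offspring without ZT6 replicate 2 or 3 (up to 0.0564), Cyp4a14 there without ZT6 replicate 3 (0.0634), and Acot1 in high-fat shifted offspring without ZT6 replicate 2 (0.05). In control mothers Angptl4 was called once ZT0 replicate 1 was left out (adjusted p = 0.000343), and Acot1 once ZT0 replicate 3 was (0.0186). With cosine and sine terms in place of 4 free means, 1 gene was called in low-fat shifted offspring, Bdh1 (adjusted p = 0.0287), and not these 4.

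**Figure D5:**
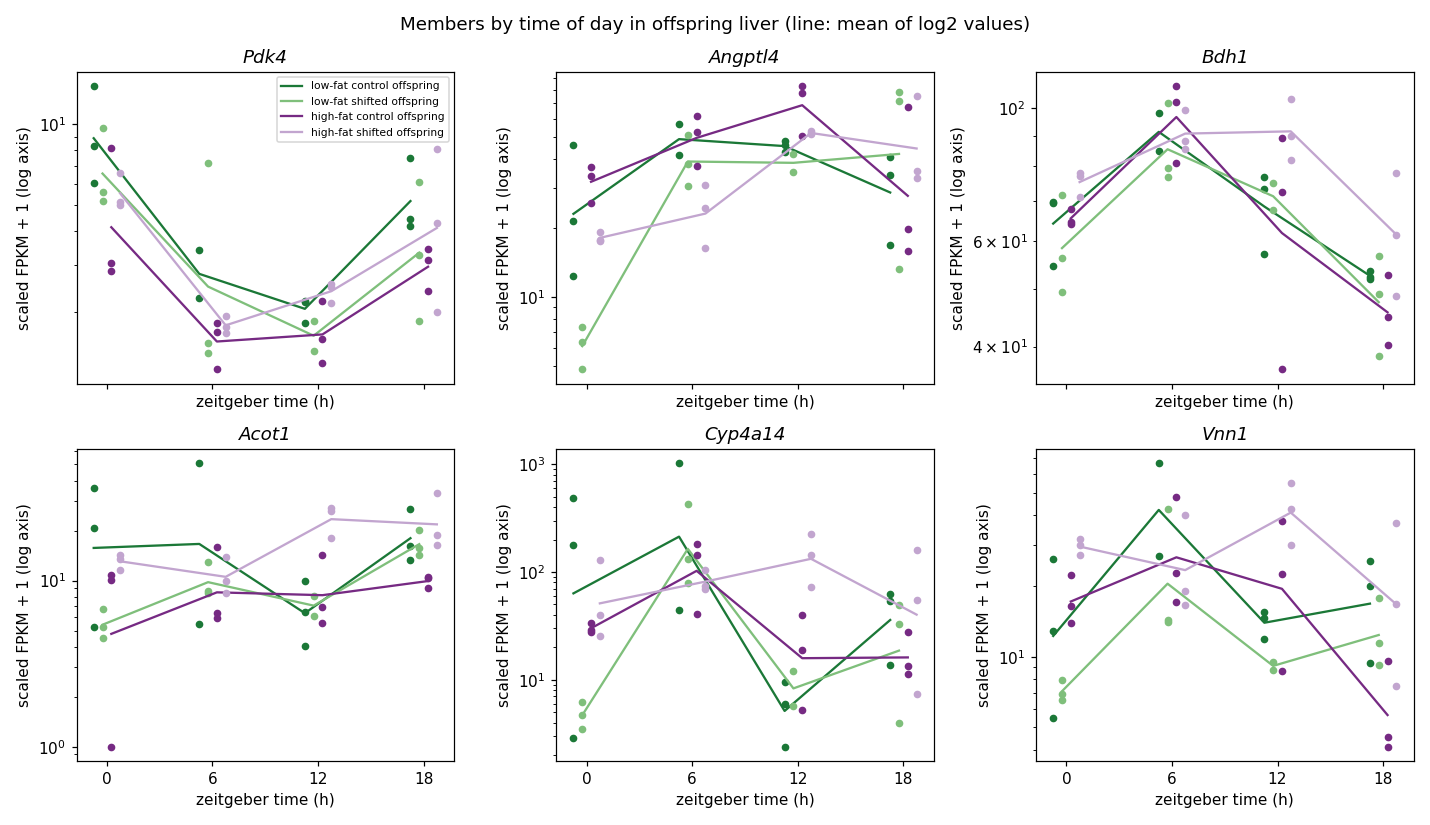
Pdk4, Angptl4, Bdh1, Acot1, Cyp4a14 and Vnn1 (scaled FPKM + 1, log axis) against zeitgeber time in the 4 offspring arms; points are libraries, slightly offset, and lines join the means of the log2 values. Pdk4 is highest at ZT0 in all 4 arms, and Angptl4 is lowest at ZT0 in low-fat control, low-fat shifted and high-fat shifted offspring.

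A course called in 1 arm and not in another is not thereby different, and the difference itself was tested. None of the 9 genes had a called interaction of time with schedule in mothers (1.65% of all genes called), fetuses (8 genes tested, 0%), low-fat offspring (0%) or high-fat offspring (0%), or of time with diet in offspring of control mothers (0%) or of shifted mothers (0.0184%). The number of the genes at an unadjusted p under 0.05 was 1, 0, 1, 0, 1 and 3 in that order.

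The 9 genes did not all vary together. Over the 24 groups of mothers and offspring, centred by stage, the highest correlation between 2 of them was that of Cyp4a10 with Cyp4a14 (r = 0.89), followed by Cyp4a14 with Vnn1 (0.75), Vnn1 with Bdh1 (0.73), and Cyp4a10 with Acot1 and with Vnn1 (0.71 each). Pdk4 went with Fgf21 (0.56) and against Angptl4 (-0.49) and Bdh1 (-0.44). These are Pearson correlations. The median correlation with the other 8 was highest for Cyp4a14 (0.56) and Cyp4a10 (0.55) and lowest for Pdk4 (0.08). Among 9615 other genes the average of the 9 was followed most closely by Pctp (r = 0.88), a phosphatidylcholine carrier, then by Cyp4a32 (0.82), Gyk (0.79), which makes glycerol phosphate, Retsat (0.79) and Dram2 (0.79). The nearest gene to Acot1 was its neighbour Acot2 (0.80), that to Cyp4a10 was Cyp4a32 (0.88) and that to Pdk4 was Tubb2a (0.93). These correlations describe 24 group means that share their libraries and their scaling, and carry no test.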

How the data were processed

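Values were deposited as FPKM per gene, 1 table per arm, made by the authors with TopHat2 2.1.1 and Cufflinks 2.2.1 on mm10, per the submitters' processing notes; the annotation is not given in the sources used here, and no counts were used. The 817 entries of 280 repeated symbols were left out. FPKM were scaled by median-of-ratios factors per library within mothers, fetuses or offspring, and genes of 1 FPKM or more in 3 or more libraries were kept. log2(FPKM + 1) was fitted with limma 3.58.1 (R 4.3.3, trend and moderated variance), 1 mean per arm and time. Level tests average the 4 times, time of day is an F-test with 3 degrees of freedom within 1 arm, and all offspring share 1 fit. P-values are two-sided and Benjamini-Hochberg adjusted over all genes tested. Library depth is unknown, so the number of libraries sets the precision. The 2 near-identical pairs of libraries were merged once the files showed them. Figures and tables were made with Python 3.11.15. The tests were tried on simulated data.

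The members and the lists were chosen with earlier results of these data known. All 9 members are named in every comparison. From each list the called genes of smallest p are named, at most 3 in each direction; some are not reported here. The most similar genes are the 5 with the highest correlation with the members' average, and 1 for each member. The lists of fasting-induced and feeding-induced genes, relatives and receptors are given mainly by counts.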

Additional observations from a re-analysis of the deposited data

Results flagged for a closer look

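The effect of the maternal schedule differed between the diets in 3 of the 9 genes by the interaction test of limma over all offspring. The difference, high-fat minus low-fat, was 1.67 on the log2 scale for Acot1 (adjusted p = 0.0176), 1.48 for Ehhadh (adjusted p = 0.00874) and 1.53 for Vnn1 (adjusted p = 0.0104). The shifted arm lay below the control arm on the low-fat diet in all 3 genes, without a call, and above it on the high-fat diet. Without the low-fat control samples of ZT0 and ZT6 the low-fat difference of Acot1 took the opposite sign. The interaction was not tested without those samples.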

How the results depend on the processing

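None of the called values changed sign under any setting. Counts of called members moved as follows. With no filter on low values they were 1 for diet in control offspring, 1 for diet in shifted offspring, 0 for time of day in low-fat control offspring, 1 in low-fat shifted and 2 in high-fat shifted ones, and 0 at single times for both high-fat offspring and diet in shifted offspring. With values as deposited, which put the median of all genes in high-fat offspring at 0.208 in place of 0.012, they were 2 in mothers, 1 for time of day in shifted mothers, 5 for the interaction, 7 for time of day in low-fat shifted offspring, and 6, 2 and 3 at single times for high-fat offspring, diet in control and diet in shifted offspring. With upper quartile scaling they were 1 for diet in shifted offspring, and 0 and 2 at single times for high-fat offspring and diet in control offspring. With GC and length trends removed they were 1 for diet in control offspring, and 1 and 0 at single times for high-fat offspring and diet in shifted offspring. A pseudocount of 0.1 gave 2 at single times for diet in shifted offspring. Fits of only the arms compared gave 5 for diet in shifted offspring, and 5 at single times. Cosine and sine terms gave 2 in low-fat control offspring and 1 in low-fat shifted offspring. Without the 5 offspring libraries of low correlation there were 4 for diet in shifted offspring, 1 for time of day in high-fat control offspring and 0 for high-fat offspring at single times. Chosen after seeing the data, counting all 96 libraries separately gave 2 and 7 for time of day in low-fat control and low-fat shifted offspring and 3 at single times for diet in shifted offspring, and leaving out low-fat control ZT0 and ZT6 gave 1 for diet in control offspring. The causes of these moves were not tested.

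Leaving out 1 sample at a time gave counts of 0 to 3 in mothers, 0 to 1 in fetuses, 2 to 5 in high-fat offspring, 1 to 3 for diet in control and 1 to 3 in shifted offspring, and 2 to 5 for the interaction. For time of day it gave 0 to 1 in control mothers, 0 to 2 in low-fat control offspring, 1 to 5 in low-fat shifted ones, 0 to 1 in high-fat control and 2 to 5 in high-fat shifted offspring, and for time by schedule 0 to 1 in mothers and in low-fat offspring. At single times it gave 0 to 4 in low-fat and in high-fat offspring and 0 to 2 for diet in control and in shifted offspring.

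Libraries of 1 number did not deviate together at the median (correlation 0 in offspring, -0.052 in mothers and 0.039 in fetuses). Of these pairs 20%, 23.8% and 45.2% had a correlation over 0.1. A median cannot decide whether some libraries are paired, so the numbers were not taken as pairs. A replicate block left 1 called member in mothers, 4 in high-fat offspring and 3 for the interaction, and added Bdh1 for diet in shifted offspring (0.309, adjusted p = 0.0403). The lack of counts limits what can be said of Fgf21 and Pdk4, each with the lowest mean of the 9 in some arms.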
